A study of Mus musculus with 5 samples.

Results

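The unfolded protein response and integrated stress response genes described here are 33 listed genes, found by exact symbol among the 28692 genes of mouse kidney single-cell count tables, with each symbol matched in all 4 droplet libraries. They comprise 7 stress sensors and transcription factors (Atf6, Eif2ak3, Ern1, Xbp1, Atf4, Atf5 and Ddit3), 11 endoplasmic reticulum chaperones and cochaperones (Hspa5, Hsp90b1, Hyou1, Calr, Canx, Dnajb9, Dnajb11, Dnajc3, Sdf2l1, Manf and Creld2) and 4 protein disulfide isomerases (P4hb, Pdia3, Pdia4 and Pdia6). The remaining members are 7 genes of protein retrotranslocation, degradation and import (Herpud1, Edem1, Sel1l, Syvn1, Derl1, Derl2 and Sec61b) and 4 amino acid and stress effectors (Trib3, Chac1, Asns and Sesn2). The rule selects genes by symbol and uses no measured values, but the list was drawn up with earlier results of these data known. Kidneys came from C57/BL6 mice aged 8 weeks, 3 animals pooled into 1 library in each of 4 groups. The groups were sham surgery (day 0), 2 days of ureteric obstruction, 7 days of ureteric obstruction, and obstruction that was then reversed, with kidneys taken 7 days after reversal (day 14 of the experiment). All 4 groups shared the same preparation: digestion of the kidney on ice, sorting of live cells by DAPI exclusion, and droplet 3′ RNA sequencing. Each group was therefore 1 library, no replicate check of any difference was possible, and every interval given here covers counting error only.

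Proteins that enter the endoplasmic reticulum are folded there by chaperones and disulfide isomerases, and misfolded ones are moved back to the cytosol and degraded. When misfolded protein accumulates, 3 membrane sensors, IRE1 (Ern1), PERK (Eif2ak3) and ATF6, raise the folding and degradation machinery through spliced XBP1 and cleaved ATF6, while PERK slows translation and raises ATF4 and then CHOP (Ddit3). The kinases of the integrated stress response that sense amino acid shortage, viral RNA and haem shortage also act through ATF4, on genes such as Asns, Trib3 and Chac1, so those genes can be raised without misfolded protein. Splicing of Xbp1, cleavage of ATF6 and translation of Atf4 are controlled after transcription, and 3′ counts do not measure them.

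The sequences around the starts of some of these genes carry letters of the elements through which the factors are known to act. They are shown because the members differ in which element they hold, many holding none of those searched. Promoter windows of RefSeq genes (GRCm38.p6, from 250 bases before to 50 bases after the RefSeq start) were found for 29 members, and none was found for Hyou1, Manf, Derl1 and Atf6. Each window was searched on both strands for 4 motifs: the endoplasmic reticulum stress element, ERSE (CCAAT, then 9 bases of any kind, then CCACG), its second form ERSE-II (ATTGG, 1 base of any kind, CCACG), the unfolded protein response element UPRE (TGACGTGG) and the amino acid response element of the C/EBP-ATF kind, CARE (TGATGNAA). The 250 bases before the RefSeq start are given 5′ to 3′ on the gene's strand, with the motif matches in capitals. The annotated GENCODE starts of some of these genes lie inside the stretch, so its later bases can be transcribed. The annotated Hspa5 gene begins at chr2:34771970, so its marked ERSE lies inside the gene. Asns begins at chr6:7693254 on the minus strand, so its marked CARE also lies inside the gene. The Hspa5 stretch is chr2:34771840-34772089 (plus strand), Hsp90b1 chr10:86705445-86705694 (minus strand), Calr chr8:84846932-84847181 (minus strand) and Pdia6 chr12:17266339-17266588 (plus strand); these 4 hold ERSE.
Hspa5: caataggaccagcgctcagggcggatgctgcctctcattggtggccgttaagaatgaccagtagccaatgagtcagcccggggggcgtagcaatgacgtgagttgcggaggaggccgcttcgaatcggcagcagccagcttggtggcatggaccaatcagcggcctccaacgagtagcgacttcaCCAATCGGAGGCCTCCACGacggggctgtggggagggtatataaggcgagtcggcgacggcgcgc
Hsp90b1: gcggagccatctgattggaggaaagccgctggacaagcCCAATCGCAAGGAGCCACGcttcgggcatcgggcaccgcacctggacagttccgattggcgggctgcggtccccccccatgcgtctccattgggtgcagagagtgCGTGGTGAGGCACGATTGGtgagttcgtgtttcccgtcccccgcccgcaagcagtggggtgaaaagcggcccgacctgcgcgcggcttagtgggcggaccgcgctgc
Calr: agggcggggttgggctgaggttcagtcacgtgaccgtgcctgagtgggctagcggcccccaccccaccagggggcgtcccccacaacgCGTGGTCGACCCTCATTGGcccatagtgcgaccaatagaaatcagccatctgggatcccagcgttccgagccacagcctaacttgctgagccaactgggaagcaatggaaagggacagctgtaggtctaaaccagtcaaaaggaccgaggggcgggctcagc
Pdia6: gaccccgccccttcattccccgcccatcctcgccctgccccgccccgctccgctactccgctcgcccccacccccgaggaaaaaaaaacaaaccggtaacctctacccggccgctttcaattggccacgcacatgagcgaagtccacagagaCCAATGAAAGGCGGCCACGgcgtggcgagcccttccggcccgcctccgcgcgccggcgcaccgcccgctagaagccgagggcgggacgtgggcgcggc

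The next 3 stretches carry the CARE, and the first of them also the ERSE-II. They are Herpud1 at chr8:94386179-94386428 (plus strand), Chac1 at chr2:119350992-119351241 (plus strand) and Asns at chr6:7693210-7693459 (minus strand).
Herpud1: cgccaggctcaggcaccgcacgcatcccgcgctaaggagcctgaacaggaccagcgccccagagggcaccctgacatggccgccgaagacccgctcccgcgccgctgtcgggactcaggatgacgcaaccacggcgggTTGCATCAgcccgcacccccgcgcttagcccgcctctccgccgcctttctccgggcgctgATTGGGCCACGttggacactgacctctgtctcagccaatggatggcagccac
Chac1: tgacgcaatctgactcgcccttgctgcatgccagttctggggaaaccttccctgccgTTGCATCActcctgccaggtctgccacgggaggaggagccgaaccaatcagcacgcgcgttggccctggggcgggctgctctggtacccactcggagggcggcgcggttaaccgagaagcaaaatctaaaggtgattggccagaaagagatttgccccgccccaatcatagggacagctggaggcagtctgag
Asns: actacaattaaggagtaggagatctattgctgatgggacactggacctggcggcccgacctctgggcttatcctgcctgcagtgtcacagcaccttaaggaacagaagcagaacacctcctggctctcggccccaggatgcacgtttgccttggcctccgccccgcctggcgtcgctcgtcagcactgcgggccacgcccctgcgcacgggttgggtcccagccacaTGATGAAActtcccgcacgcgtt

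ERSE was present in 8 of the 29 members with a window (27.6%), against 0.137% of the 27025 genes with a window. The 8 were Hspa5, Hsp90b1, Calr, Canx, Pdia6, Dnajc3, Creld2 and Syvn1, with the match of Hspa5 beginning at position -65 and those of Hsp90b1, 1 on each strand, at -212 and -107, where +1 is the RefSeq start. ERSE-II was present in Herpud1 (position -52) and Dnajb11 (position 8), 2 of 29, against 0.0444% of genes. The CARE was present in Herpud1, Trib3, Chac1 and Asns, 4 of 29 members or 13.8%, against 4.51% of genes, and the exact UPRE letters were in 0 of 29 members and 0.714% of genes. The members were listed as genes of these responses, and the motifs were chosen as known elements of the same responses. The higher shares were thus built into the choice and are not a test. A match is a description of letters in this window and shows neither binding nor a cause. Beside the sequences, the GRCm38 gene models put Hspa5 at chr2:34771970-34777547 (plus strand), Xbp1 at chr11:5520659-5525893 (plus strand), Atf4 at chr15:80255184-80257541 (plus strand) and Ddit3 at chr10:127290774-127296288 (plus strand). Whether counting used the strand was not given in the sources used here, and exons of Ddit3 overlap Mars, those of Atf5 overlap Il4i1 and Nup62, and those of Pdia6 overlap Atp6v1c2 on the other strand, so their counts are uncertain to that extent. The same holds for Hsp90b1, Manf, Pdia3, Syvn1 and Derl2, which each overlap another gene on the other strand, and for Manf, which also overlaps Rbm15b on its own strand.

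The libraries held between 2739 and 4504 deposited cells in the obstructed and reversed groups and 5938 in sham, with 18649637 to 30462683 unique molecular identifiers (UMIs, each a captured transcript) per library. The sham library stood apart: the median share of mitochondrial UMIs in its kept cells was 33.7%, against 2.96 to 9.89% in the others, and its median non-mitochondrial depth was 1811.5 UMIs per cell against 3959.5 to 5478. Pairs of libraries shared 16 to 39 deposited barcodes, which is counted here and does not identify shared cells. Cells were assigned to gates by marker genes, and 2.46 to 12.6% of cells per library stayed outside every gate. Orders of gates given here are among 8 gates (4 tubule segments before the collecting duct, its 2 cell types, phagocytes and endothelium) and leave out the other gates, such as T cells and fibroblast or mural cells, which each held under 30 cells in sham. At day 2 the distal convoluted tubule, with 16 cells, is not ranked either. The proximal tubule gate held 2968, 496, 151 and 1072 cells in sham, day 2, day 7 and reversed, the mononuclear phagocyte gate 49, 387, 2097 and 480, and the endothelial gate 218, 149, 468 and 357. In the proximal tubule gate all 10 tubule markers were detected, with a summed level of 24171, 13076, 16651 and 20879 CPM, the unit of every level here. In the phagocyte gate the 10 phagocyte markers summed to 23457 to 38419, and in the endothelial gate the 8 endothelial markers summed to 8417 to 10899. Levels are UMIs of a gene per 1000000 non-mitochondrial UMIs of all cells of the gate (CPM), folds are log2 ratios of CPM + 1, and a member counts as past 2-fold at an absolute log2 ratio of 1 or more. Only genes with 30 or more UMIs in the 2 sums compared were counted. All 33 members were listed and had at least 1 UMI in every library.

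The members' levels differed between libraries by less than 2-fold in most cases, in the tubule and in the other gates alike. In the proximal tubule 2 of 30 members that had enough UMIs were past 2-fold at day 2 against sham, both higher, beside 8.02% of the 9680 genes tested. At day 7 against day 2 it was 2 of 29, both lower, beside 8.99%, at reversal against day 7 it was 2 of 30, both higher, beside 9.44%, and at reversal against sham 1 of 30, beside 7.61%. The members' share was near or below that of all genes in each of the 4 comparisons. Against sham, the medians of the chaperones, the isomerases and the transcription factors lay above that of all genes at day 2 and after reversal, and the median of the degradation genes lay below it; no test compared the role groups. Comparisons with sham share the sham library, so they are not independent of each other.

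**Figure D1:**
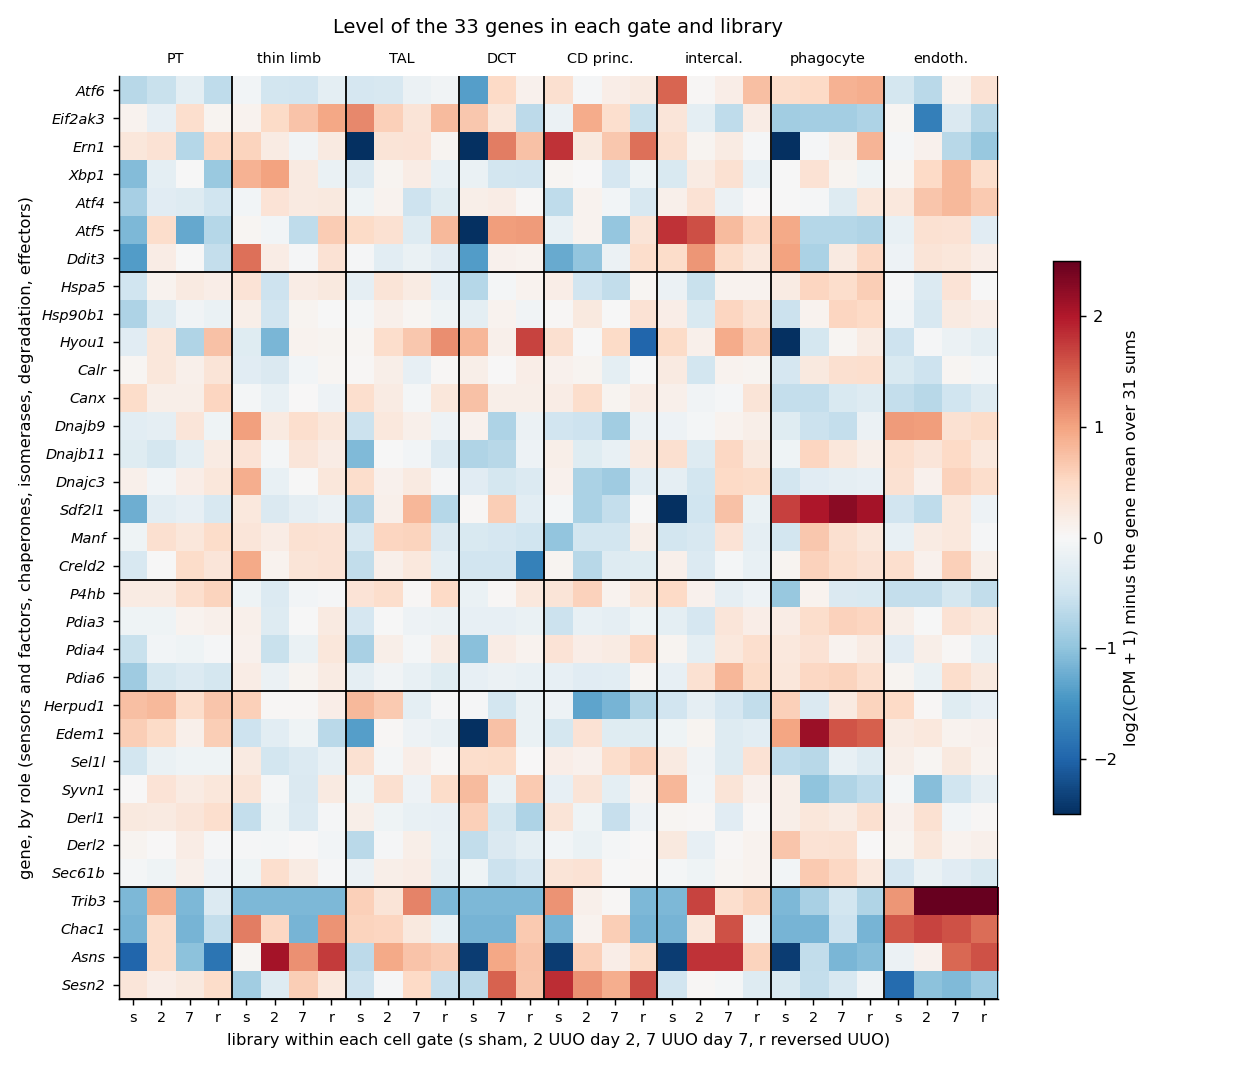
Heat map of the 33 members (rows, ordered by role) in each gate and library (columns, with s for sham, 2 and 7 for obstruction day 2 and day 7, and r for reversed; PT proximal tubule, TAL thick ascending limb, DCT distal convoluted tubule, CD collecting duct, with the 3 libraries of DCT that held at least 30 cells shown). Colour is the log2 of CPM + 1 minus the row's mean over the columns, cut at 2.5 in each direction; Sdf2l1 is highest in the phagocyte columns of all 4 libraries.

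Among the chaperones of the proximal tubule, Hspa5 (BiP, the main endoplasmic reticulum Hsp70) was at 322 CPM in sham, 481 at day 2, 531 at day 7 and 510 after reversal. Its log2 ratio was 0.57 at day 2 against sham (95% interval 0.46 to 0.69), 0.14 at day 7 against day 2 (-0.04 to 0.32), -0.06 at reversal against day 7 (-0.22 to 0.11) and 0.66 at reversal against sham (0.57 to 0.75). The sham library was the lowest and the other 3 lay close together. Cells of these libraries fell mostly into different clusters, with Hspa5 at 344 and 277 CPM in the 2 that were mostly sham, 431 in that mostly of day 2 and 518 in that mostly reversed, so library and cluster cannot be told apart in this order. Hsp90b1 (GRP94, the endoplasmic reticulum Hsp90) ran alike in order, at 289, 396, 462 and 444 CPM. Sdf2l1, a cofactor that binds with BiP, was at 29.4, 58.0, 60.5 and 52.4 CPM, and its ratio of day 2 to sham (log2 0.96, interval 0.61 to 1.29) lay just inside the 2-fold line. Hyou1, the large Hsp70-related nucleotide exchange factor for BiP, was past 2-fold higher after reversal than in sham (19.0 against 8.89 CPM, log2 1.02, interval 0.54 to 1.49), at 13.6 CPM at day 2 and at 6.21 CPM at day 7 on 4 UMIs. Its ratio of reversed to sham fell short of 2-fold with TMM or DESeq2 factors, a pseudocount of 10 CPM, doublets kept or equal weight per cell. Across the 11 chaperones, 7 lay above the all-gene median at day 2 against sham, where their median log2 ratio was 0.39 against 0.07 for all genes, and 10 of 11 at reversal against sham, where it was 0.56 against 0.14. Canx, the membrane lectin chaperone, was the lowest of the group at day 2 against sham, at log2 -0.31.

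The isomerases form and rearrange disulfide bonds in folding proteins. All 4 lay above the all-gene median at reversal against sham, with a median log2 ratio of 0.41 (range 0.23 to 0.53), and 2 of 4 at day 2 against sham. Pdia4 was at 57.9, 81.3, 79.1 and 84.0 CPM in sham, day 2, day 7 and reversed, and Pdia6 at 133, 182, 197 and 184. The tubule held the lowest Pdia6 of the gates ranked in each of the 4 libraries, and in the others ranked it ran from 202 to 444 CPM. T cells, which were not ranked, were lower still at day 2 and after reversal, at 138 and 129 CPM, as was the distal convoluted tubule at day 2, at 143 CPM on 16 cells.

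Of the sensors and transcription factors in the proximal tubule, Ddit3 (CHOP, the factor PERK signalling raises late) was at 10.2 CPM in sham (63 UMIs), 32.3 at day 2 (64 UMIs), 27.9 at day 7 (18 UMIs) and 18.3 after reversal (77 UMIs). It was past 2-fold higher at day 2 than in sham (log2 1.57, interval 1.08 to 2.06), and the reversed library lay between sham and the obstructed libraries (log2 0.79 against sham, interval 0.32 to 1.25). Atf5, another stress factor whose translation is controlled in the same way as that of Atf4, was at 5.34, 17.7, 4.66 and 7.38 CPM and past 2-fold at day 2 against sham (log2 1.56, interval 0.90 to 2.20), and past 2-fold lower at day 7 than at day 2 (log2 -1.72, -3.33 to -0.24, on 3 UMIs at day 7). The day 2 and sham cells of the tubule fell into different clusters (clustered without the members): 1 cluster held 460 cells from day 2 and 2 from sham, with Ddit3 at 30.2 CPM and Atf5 at 20.9, and 2 others held 1784 and 901 cells from sham and 4 and 0 from day 2, with Ddit3 at 8.86 and 8.09 CPM and Atf5 at 6.0005 and 5.78. Library and cluster cannot be told apart in these ratios. Day 2 alone was high for Atf5, and with a pseudocount of 10 CPM neither Atf5 ratio passed 2-fold. Xbp1, the factor that IRE1 activates by splicing, was at 69.4, 126, 147 and 77.3 CPM, so that sham and reversed lay together and the obstructed libraries above them. Its log2 ratio was 0.85 at day 2 against sham (interval 0.62 to 1.07) and -0.92 at reversal against day 7 (-1.25 to -0.58), short of 2-fold in each. Atf4 was at 35.9, 53.0, 51.2 and 45.5 CPM, with a ratio of day 2 to sham of 0.55 (0.21 to 0.88).

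**Figure D2:**
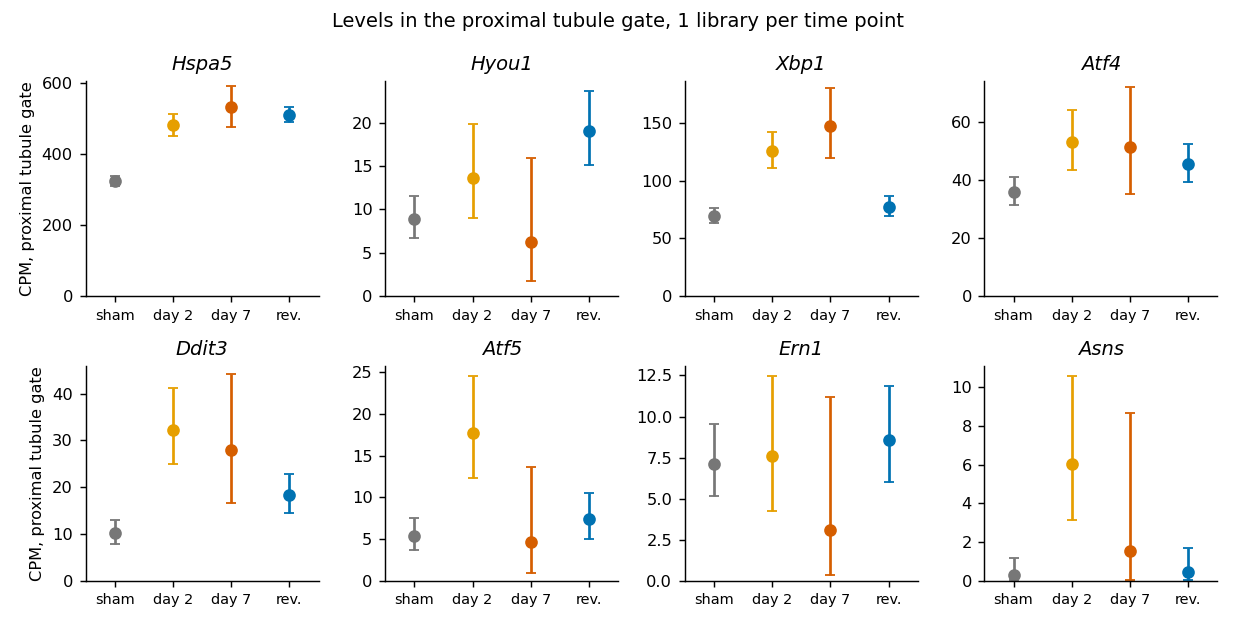
CPM of 8 members in the proximal tubule gate by library (points, with exact Poisson 95% intervals for counting error as bars). Xbp1 is high at day 2 and day 7 and near the sham level after reversal, while Hspa5 remains at 510 CPM after reversal against 322 in sham.

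For the sensors themselves, whose transcripts are scarce, Eif2ak3 (PERK) was at 10.6 to 17.1 CPM, Atf6 at 16.98 to 23.3 and Ern1 (IRE1) at 3.10 to 8.57, with no order of the libraries common to the 3. Ern1 was past 2-fold higher after reversal than at day 7, at log2 1.22 with an interval of -0.44 to 2.86, on 2 UMIs at day 7. Hyou1 was past 2-fold in the same comparison (log2 1.48, interval 0.19 to 2.93) and in that of day 7 with day 2 (log2 -1.02, interval -2.55 to 0.36), both resting on the 4 UMIs of day 7. Each of these 3 ratios fell short of 2-fold with a pseudocount of 10 CPM. The degradation and import genes, which move misfolded proteins out and new ones in, gave a median log2 ratio of -0.01 at day 2 and 0.0017 at reversal, each against sham, with 2 and 3 of 7 above the all-gene medians. Herpud1, part of the retrotranslocation complex, was at 159, 164, 127 and 151 CPM. The amino acid effectors were at few UMIs in the tubule: Asns (asparagine synthetase) gave 2, 12, 1 and 2 UMIs and Trib3 0, 6, 0 and 3, so Asns was at 6.06 CPM at day 2 against 0.323 in sham. Asns, Trib3 and Chac1 had under 30 UMIs in every comparison and were not counted. Day 2 was the library with the most UMIs of Asns, Trib3 and Chac1 in this gate.

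The segments of the proximal tubule were also summed separately. In S1 cells, the first part of the proximal tubule, Hspa5 was at 356 CPM in sham (1354 cells), 539 at day 2 (278), 890 at day 7 (35) and 543 after reversal (641). The day 7 value rested on 140 UMIs, and its log2 ratio against day 2 was 0.72 (interval 0.45 to 0.99). In S3 cells, the last part, Hspa5 was at 288 CPM in sham, 347 at day 2, 419 at day 7 and 456 after reversal, with 27 cells at day 2, too few for a comparison. Xbp1 was lower after reversal than at day 7 in both, with log2 ratios of -0.96 (-1.60 to -0.26) in S1 and -1.02 (-1.55 to -0.49) in S3. Ddit3 and Sdf2l1 were past 2-fold higher at day 2 than sham in S1 (log2 1.29 and 1.01), 2 of 29 members beside 7.73% of genes. The median log2 ratio of the members in S1 was 0.22 against 0.05 for all genes at day 2 over sham, and 0.32 against 0.12 at reversal over sham. On the 35 cells of day 7, it was 0.40 against 0.02 at day 7 over day 2, with 22 of 25 members above the all-gene median, and -0.31 against 0.03 at reversal over day 7, with 7 of 28 above it. Past 2-fold were 1 of 25 members beside 12.8% of genes (Edem1) and 3 of 28 beside 18% (Edem1, Eif2ak3 and Ddit3), with no UMI of Edem1 or Eif2ak3 at day 7 and 7 of Ddit3. With counts of 0 set to 3 UMIs, which stand for 19.1 CPM at day 7, 1 member and not 3 was past 2-fold at reversal over day 7.

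Other measures moved with the same libraries. A list of 13 early-response and heat-shock genes known to rise on tissue digestion summed to 151, 493, 914 and 691 CPM in the proximal tubule gate, with 9 of 11 tested past 2-fold higher at day 2 than in sham. The 10 phagocyte markers, all detected there, summed to 60.8, 474, 2742 and 1111 CPM in the same gate. The median mitochondrial share of the tubule cells was 35.1, 24.6, 22.4 and 31.5%, so that sham and reversed were both above the obstructed libraries. Their part in the tubule differences was not tested.

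The mononuclear phagocyte gate was compared with sham on only 49 cells and 155983 UMIs, where 3 UMIs stand for 19.2 CPM. Hspa5 was at 526, 661, 613 and 695 CPM in sham, day 2, day 7 and reversed, with a log2 ratio of 0.33 at day 2 against sham (interval 0.01 to 0.66). Hsp90b1 was at 340, 529, 721 and 700 CPM and past 2-fold higher after reversal than in sham (log2 1.04, interval 0.65 to 1.46). Ddit3 was at 57.7, 15.9, 33.4 and 40.8 CPM, on 9, 66, 466 and 137 UMIs. It was past 2-fold lower at day 2 than in sham (log2 -1.80, interval -2.79 to -0.64) and past 2-fold higher at day 7 than at day 2 (log2 1.03, 0.68 to 1.40), so day 2 was its lowest library. With DESeq2 factors or a pseudocount of 10 CPM the ratio of day 7 to day 2 fell short of 2-fold. Atf4 was at 64.1, 63.0, 51.5 and 79.0 CPM, Xbp1 at 147, 191, 156 and 137, and Atf5 at 25.6 on 4 UMIs in sham and 7.15 to 7.46 in the others. Day 2 was the lowest library for none of these 3.

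At day 2 against sham, 7 of 28 phagocyte members were past 2-fold, beside 30.3% of genes, and 6 with counts of 0 set to 3 UMIs. Those higher were Edem1 (log2 1.16, interval 0.18 to 2.34), which hands misfolded glycoproteins to degradation, Manf (1.13, 0.51 to 1.82), a secreted factor of the endoplasmic reticulum, P4hb (1.03, 0.25 to 1.93) and Hyou1, with no UMI in sham and 7.93 CPM at day 2, below the level that 3 UMIs would give in sham, so no fold is given. Those lower were Ddit3, Atf5 (log2 -1.66, interval -3.09 to 0.16) and Syvn1 (log2 -1.14, -2.74 to 0.95), the ubiquitin ligase of the retrotranslocation complex, which rested on 3 UMIs in sham and was at 19.2, 8.17, 9.90 and 10.7 CPM. Edem1 was at 51.3, 116, 78.2 and 73.3 CPM, Manf at 135, 295, 244 and 224 and P4hb at 83.3, 171, 125 and 123, each highest at day 2. The phagocytes of the libraries also fell into different clusters: 1 held 248 of its 305 cells from day 2, another 1246 of its 1290 from day 7 and another 201 of its 232 from reversed, with Edem1 at 116, 69.1 and 59.3 CPM, so library and cluster cannot be told apart here. Of 30 members at day 7 against day 2, 1 was past 2-fold, which was Ddit3, beside 12.2% of genes, and 0 of 30 were at reversal against day 7, beside 4.22%. At reversal against sham 3 of 28 were past 2-fold, beside 24.7%: Hsp90b1, and Hyou1 and Ern1, both without a UMI in sham and, at day 2, day 7 and reversed, at 7.93, 11.5 and 12.8 CPM and at 5.53, 6.39 and 11.03 CPM. These levels lie below the 19.2 CPM that 3 UMIs stand for in sham, so no fold is given for these 2 members, and with counts of 0 set to 3 UMIs 1 member was past 2-fold, not 3. Against sham, Hsp90b1 fell short of 2-fold with equal weight per cell, P4hb, Syvn1 and the day 2 ratio of Hyou1 with a pseudocount of 10 CPM or Leiden clusters as gates, and Ern1 with Leiden clusters. In the phagocytes, the 10 tubule markers summed to 1737, 175, 119 and 711 CPM, and the dissociation genes to 2334, 4187, 3147 and 5851. Their part in these ratios was not tested.

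Phagocytes were the highest of the 8 gates for 3 members in all 4 libraries. No share of all genes is given beside this or the other orders of gates. They therefore do not show whether such orders are more common among the members than among other genes. Sdf2l1 was at 231, 288, 337 and 299 CPM and at least 2.72-fold above the next gate in each library, while the others ranked ran from 7.85 to 124 CPM. T cells, not ranked, were at 156 CPM at day 7. Edem1 was at least 1.30-fold above the next gate, and Pdia3 at least 1.03-fold, so that the latter difference was small. Hspa5 was highest in phagocytes in 3 of the 4 libraries, as were Derl2, Atf6 and Sec61b. Eif2ak3 and Sel1l, the adaptor of the Syvn1 ligase, were lowest there in 3 of 4. The fibroblast or mural gate, outside the 8, was above phagocytes at day 7 for Hspa5 (791 CPM), Sec61b (615) and Pdia3 (604). These are orders of gates within a library, so they do not rest on a comparison between libraries.

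**Figure D3:**
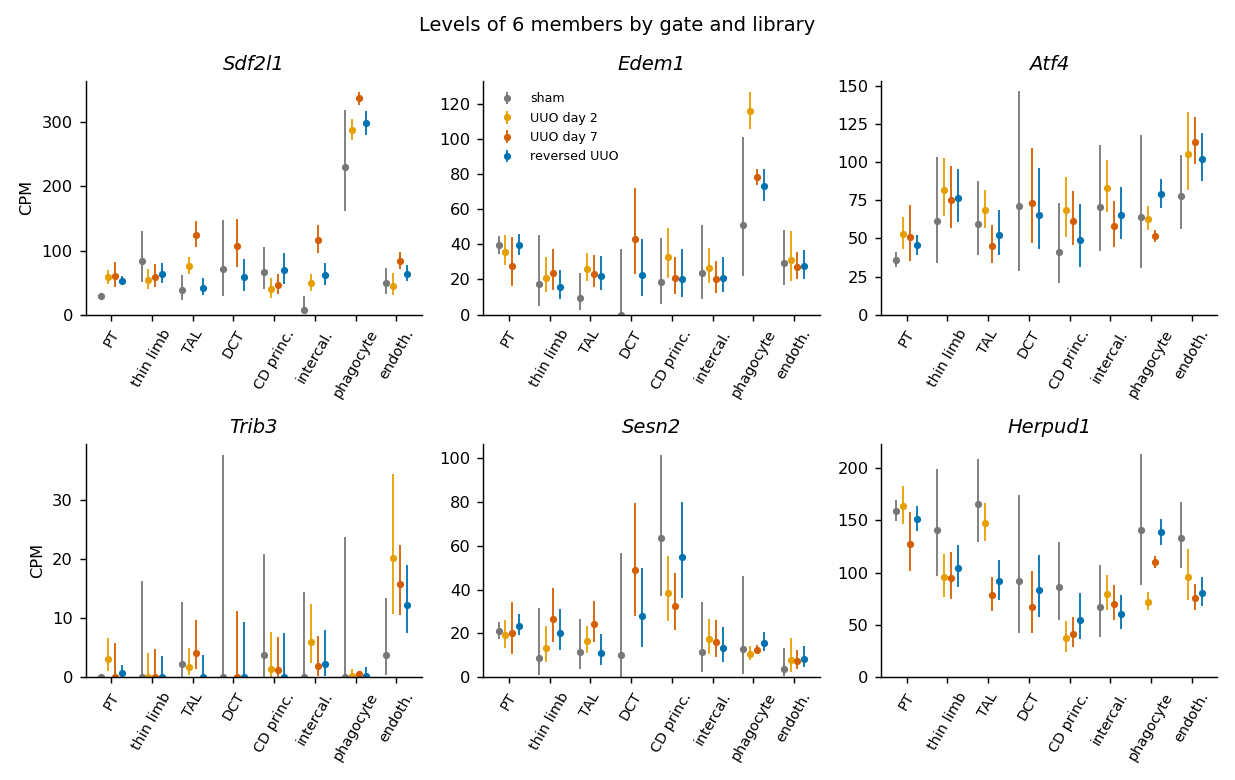
CPM of 6 members in 8 gates (PT proximal tubule, TAL thick ascending limb, DCT distal convoluted tubule, CD princ. collecting duct principal, intercal. intercalated, endoth. endothelium), with 1 coloured point per library (UUO, unilateral ureteric obstruction) and exact Poisson 95% intervals as bars. Sdf2l1 lies highest in phagocytes in each library and Sesn2 highest in collecting duct principal cells in 3 of 4.

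Endothelium had no member past 2-fold in any of the 4 comparisons (0 of 23, 26, 30 and 25 tested), beside 7.9, 9.26, 2.94 and 10.4% of genes. Hspa5 was at 447, 356, 572 and 452 CPM in sham, day 2, day 7 and reversed, so that day 2 was lowest and day 7 highest, with a log2 ratio of 0.68 between them (interval 0.48 to 0.89). Hsp90b1 was at 469, 376, 578 and 558 CPM and Sdf2l1 at 49.9, 44.9, 84.2 and 63.7, with day 2 lowest for both. At day 7 against day 2 the chaperones had a median log2 ratio of 0.47, with 9 of 10 above the all-gene median, and the degradation group of -0.19. Dnajb9, the cochaperone that stops IRE1 from signalling, ran the other way in the same comparison, at 99.0 CPM at day 2 and 62.3 at day 7 (log2 -0.66, interval -1.10 to -0.20).

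Atf4 was at 77.6, 105, 114 and 102 CPM in endothelium, highest of the 8 gates in all 4 libraries and at least 1.09-fold above the next, though the fibroblast or mural gate was at 116 CPM after reversal. Xbp1 was at 153, 209, 259 and 200 CPM and Ddit3 at 25.9, 35.6, 34.5 and 31.9. Trib3, a pseudokinase that ATF4 and CHOP raise, was at 3.70, 20.1, 15.7 and 12.3 CPM on 2, 13, 30 and 20 UMIs, and Asns at 3.70, 4.64, 13.1 and 14.7 on 2, 3, 25 and 24. Both stood under 30 UMIs in the comparison of day 2 with sham, so they were not counted there; Trib3 gave a log2 ratio of 2.17 with an interval of 0.28 to 4.03. Chac1, which breaks down glutathione, was highest in endothelium in all 4 libraries on 3, 4, 11 and 8 UMIs, and in 2 of them with at most 20% mitochondrial UMIs. Trib3 and Dnajb9 were highest there in 3 of 4. Canx and Sesn2 were lowest of the 8 gates in endothelium in all 4 libraries and P4hb in 3, but Canx in 1 with Leiden clusters as gates. T cells were lower in Canx at day 7 and after reversal, at 171 and 149 CPM against 211 and 240 in endothelium. In this gate the phagocyte markers summed to 38.8, 387, 2339 and 1671 CPM, with 5 of 10 at 0 in sham (Csf1r, C1qc, Ms4a6c, Ms4a7 and Mpeg1), and the dissociation genes to 1819, 2518, 3590 and 4919; their part was not tested.

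The share of cells with a UMI gave the same members a different denominator. The share estimated as free RNA was the summed level of proximal tubule markers in a gate over that in the library's kept cells. For the proximal tubule gate, markers of phagocytes, thick ascending limb and collecting duct principal cells were used instead. No empty droplets entered this estimate, so it is rough. In sham, day 2, day 7 and reversed, the estimated share was 22.2, 11.3, 17.7 and 16.3% in the proximal tubule gate. It was 9.52, 7.88, 17.4 and 12.2% in phagocytes and 9.14, 12.2, 26.0 and 12.4% in endothelium. A UMI in a cell can thus be free RNA, and these are not shares of cells that express a gene. Thinned to 1000 UMIs per cell, Ddit3 was detected in 1.32% of proximal tubule cells in sham, 2.62% at day 2, 3.31% at day 7 and 1.03% after reversal, with exact binomial 95% intervals of 0.911 to 1.85%, 1.40 to 4.44%, 1.08 to 7.56% and 0.513 to 1.83%. The intervals of the obstructed libraries overlapped those of sham and reversed. Of the sham tubule cells 471 were too shallow to be thinned, and none in the other 3 libraries. In phagocytes the thinned share was 2.04, 1.81, 3.39 and 4.38%, and in endothelium 3.23, 3.36, 4.70 and 1.68%. For Trib3 the thinned share in endothelium was 0.461, 0.671, 1.496 and 1.40%. In tubule cells it was 0 of 2497 cells in sham, 0 of 496 at day 2, 0 of 151 at day 7 and 2 of 1072 (0.187%) after reversal. At that thinned depth the counts of 0 allow shares of cells with a UMI of up to 0.120%, 0.605% and 1.99%, and they do not limit the share of cells that express Trib3: without thinning, 6 of the 496 cells at day 2 (1.21%) had a UMI.

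In the thick ascending limb, the salt-absorbing segment after the thin limb, the members stood further above all genes at day 2 against sham than in any other comparison of the 8 gates, with a median log2 ratio of 0.30 against -0.14. In this gate the median mitochondrial share was 36.6% in sham and 20.9% at day 2, the share of UMIs estimated as free RNA 13.9% and 27.5%, and the sum of the dissociation genes 351 and 929 CPM; their part in the ratio was not tested. Of 29 counted members 2 were past 2-fold, Dnajb11 (log2 1.08, interval 0.44 to 1.79) and Edem1 (1.41, 0.05 to 3.02, on 4 UMIs in sham), beside 15.7% of genes, and the 11 chaperones had a median of 0.55. Dnajb11 was at 48.2, 103, 99.2 and 82.5 CPM and Edem1 at 9.18, 26.1, 23.3 and 22.1 in sham, day 2, day 7 and reversed, with sham the lowest for both. Hspa5 was at 388, 570, 522 and 393 CPM in sham, day 2, day 7 and reversed, with sham and reversed alike. Sdf2l1 was at 39.0, 76.0, 124 and 42.3 CPM and was past 2-fold lower after reversal than at day 7 (log2 -1.53, interval -2.05 to -1.04). The cells of this gate differed by cluster between libraries: of the 3 clusters that were mostly thick ascending limb, 1 held day 7 cells alone (139), 1 was mostly day 2 (324 of 456 cells) and 1 mostly sham and reversed (206 and 151 of 358), so library and cluster cannot be told apart here. Sesn2 was also lower in that comparison (log2 -1.06, -2.10 to -0.08) and Atf5 higher (1.13, 0.14 to 2.16), 3 of 29 members beside 5.9% of genes. Sesn2 was at 11.5, 16.5, 24.2 and 11.1 CPM and Atf5 at 18.4, 17.02, 10.005 and 23.1. Manf, at 140, 269, 273 and 144 CPM, had the same order of libraries as Sdf2l1 and stayed short of 2-fold. Xbp1 was at 117, 156, 169 and 130 CPM, Atf4 at 59.7, 68.7, 45.0 and 52.3, and Ddit3 at 27.6, 23.3, 25.01 and 23.1. Pdia4 and Hyou1 were past 2-fold higher after reversal than in sham (log2 1.02 and 1.12), at 48.2, 94.8, 82.5 and 98.6 CPM and at 11.5, 15.3, 18.3 and 26.2 CPM, 2 of 27 beside 12.4% of genes, and none of 29 was at day 7 against day 2, beside 7.07%. With a pseudocount of 10 CPM, Dnajb11, Edem1, Sesn2, Atf5, Pdia4 and Hyou1 all fell short of 2-fold here, and so did Sdf2l1 with free RNA subtracted.

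In intercalated cells, which secrete acid or base in the collecting duct, 1 member, the chaperone cofactor Sdf2l1, was past 2-fold at day 7 against day 2. Sdf2l1 was at 7.85, 49.2, 117 and 61.8 CPM on 2, 57, 122 and 56 UMIs, past 2-fold higher at day 2 than sham (log2 2.505, interval 0.71 to 4.72) and at day 7 than day 2 (1.23, 0.77 to 1.70). Atf6 was past 2-fold lower at day 2 than in sham (log2 -1.43, -2.25 to -0.57), at 78.5, 28.5, 31.5 and 47.4 CPM. That made 2 of 25 members beside 15% of genes, 1 of 29 at day 7 against day 2 beside 5.23%, 0 of 27 at reversal against day 7 beside 5.58% and 1 of 23 at reversal against sham beside 11.1%. At day 7 against day 2 the median log2 ratio of the 11 chaperones was 0.73, with 10 of 11 above the all-gene median of 0.07, while that of the sensors was -0.50. Between the same libraries, the estimated free RNA share went from 10.4 to 19.6% and the median number of phagocyte markers detected per cell from 2 to 5 of 10; their part was not tested. Hspa5 was at 412, 308, 486 and 485 CPM and Hsp90b1 at 553, 378, 718 and 643, with day 2 the lowest library for both. Xbp1 was at 114, 171, 194 and 130 CPM, Atf4 at 70.6, 82.9, 58.3 and 65.1 and Ddit3 at 39.2, 62.2, 39.2 and 34.2. The ratio of Sdf2l1 at day 7 to day 2 fell short of 2-fold with doublets kept, and that of Atf6 with equal weight per cell.

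**Figure D4:**
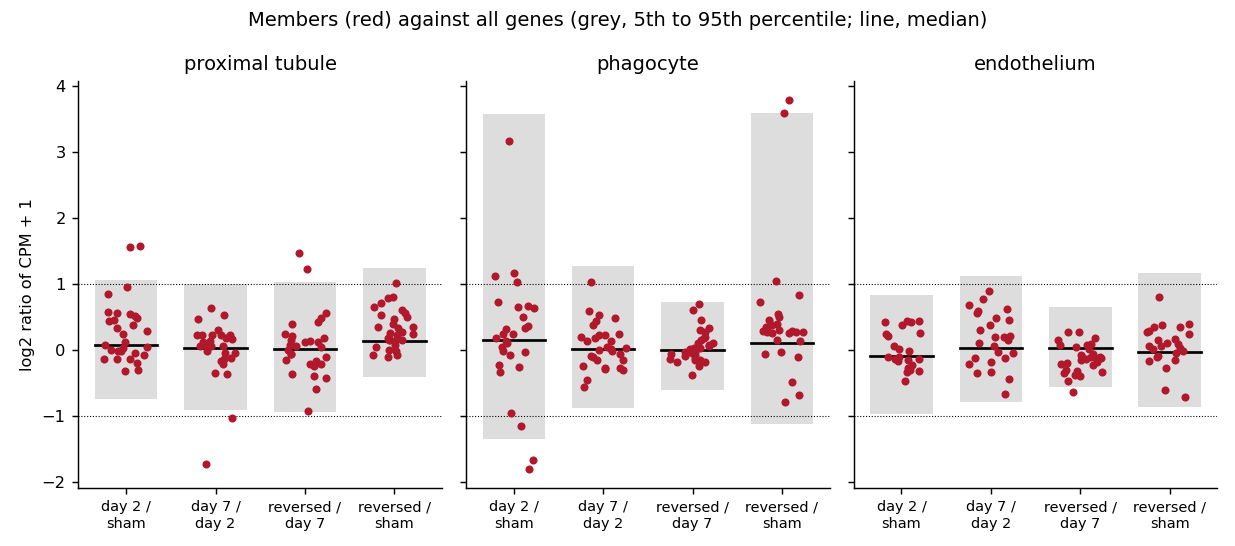
Log2 ratios of CPM + 1 of the counted members (red points) in 3 gates and 4 library comparisons, over the 5th to 95th percentile of all genes tested (grey bars) and their median (black line), with dotted lines at 2-fold. Most members lie inside the grey bars, which are widest for the phagocytes against sham.

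In the thin limb, Xbp1 was at 273, 297, 173 and 132 CPM, past 2-fold lower after reversal than in sham (log2 -1.04, interval -1.48 to -0.59). Of the 2 clusters whose most common gate was the thin limb, 1 held 51 sham and 40 reversed cells, with Xbp1 at 299 CPM, and 1 held 4 sham and 88 reversed cells, with Xbp1 at 122, so library and cluster cannot be told apart in this ratio. Ddit3 was at 74.8, 32.2, 27.7 and 36.9 CPM on 17, 29, 21 and 38 UMIs, past 2-fold lower at day 2 than in sham (log2 -1.19, -2.09 to -0.26) and, at -1.002 (-1.85 to -0.10), at reversal. Dnajc3, a cochaperone that inhibits PERK, was past 2-fold lower at day 2 than in sham (log2 -1.09, -1.59 to -0.59), at 233, 109, 124 and 152 CPM. Hspa5 was at 572, 315, 515 and 538 CPM and Atf4 at 61.6, 82.1, 75.2 and 76.6. That was 2 of 22 members beside 16.2% of genes, and 2 of 23 at reversal against sham beside 21.7%; none of 26 was at day 7 against day 2 (8.7%) nor of 27 at reversal against day 7 (6.66%). The chaperones had a median of -0.62 at day 2 against sham, on 53 sham cells, against -0.15 for all genes. From sham to day 2, the estimated free RNA share in the thin limb went from 11.7 to 30.2%. The median number of phagocyte markers detected per cell went from 0 to 2 of 10, and the part of these measures was not tested. At day 7 the free RNA estimate was 100.2%, above what a share can be. The estimate therefore does not hold there, and the day 7 levels of this gate are uncertain. In collecting duct principal cells, Herpud1 was past 2-fold lower at day 2 than in sham (log2 -1.19, -2.03 to -0.34), 1 of 23 beside 16.2%, at 85.8, 37.1, 41.2 and 55.04 CPM, and Manf past 2-fold higher after reversal than in sham (1.13, 0.50 to 1.82), 1 of 21 beside 11.5%, at 93.3, 135, 134 and 206 CPM. There Hspa5 was at 507, 325, 297 and 471 CPM, lowest in the obstructed libraries, Xbp1 at 153, 149.7, 110.2 and 137, Atf4 at 41.04, 68.7, 61.7 and 48.9, and Ddit3 at 11.2, 13.7, 25.4 and 38.7. None of 26 and none of 24 was past 2-fold at day 7 against day 2 (8.36%) and at reversal against day 7 (4.87%). In the latter comparison 23 of 24 members lay above the all-gene median, with a median log2 ratio of 0.31 against -0.003 for all genes. From day 7 to reversed, the estimated free RNA share in this gate went from 22.3 to 13.6%, the median mitochondrial share from 10.8 to 16.7%, the median number of phagocyte markers detected per cell from 5 to 3 of 10 and the sum of the dissociation genes from 2006 to 3835 CPM, and their part was not tested. Sesn2, a sestrin that restrains TORC1 signalling when amino acids are short, was highest there in 3 of 4 libraries, at 63.4, 38.5, 32.7 and 55.04 CPM. In the distal convoluted tubule, with 16 cells at day 2 too few, Pdia4 was higher (log2 1.14, -0.32 to 3.00) and Derl1, a channel component of retrotranslocation, lower (log2 -1.37, -2.44 to -0.26) after reversal than in sham, 2 of 18 beside 20.1%. Pdia4 was at 40.8, 97.9 and 90.98 CPM in sham, day 7 and reversed, on 4 UMIs in sham, and Derl1 at 132.5, 64.2 and 50.5. In those libraries Hspa5 was at 275, 440 and 485 CPM, with a log2 ratio of 0.82 (interval 0.23 to 1.45) at reversal against sham, Xbp1 at 132.5, 107 and 106, Atf4 at 71.3, 73.4 and 65.7, and Ddit3 at 10.2, 30.6 and 30.3 on 1, 10 and 12 UMIs. The dissociation genes summed to 398, 1238 and 1648 CPM there, and the median mitochondrial share was 40.5, 12.3 and 30.02%; their part was not tested. In the same gate 0 of 19 were past 2-fold at reversal against day 7, beside 7.3%. In these 3 gates, TMM factors took the ratios of Ddit3, Dnajc3 and Xbp1 in the thin limb short of 2-fold, all UMIs as the scale that of Herpud1, Leiden clusters that of Manf and doublets kept that of Pdia4.

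Herpud1 had its highest level in sham in the thick ascending limb, thin limb, distal convoluted tubule, phagocytes, endothelium and collecting duct principal cells, though of those compared with sham at day 2, which leaves out the distal convoluted tubule, only the last passed 2-fold. In the thick ascending limb it was at 165, 148, 78.4 and 91.6 CPM, with a log2 ratio of -0.90 at day 7 against day 2 (interval -1.26 to -0.56), and in endothelium at 133, 95.9, 75.9 and 80.9. In the proximal tubule its levels stayed between 127 and 164 CPM, and the tubule was the highest of all gates in 3 of the 4 libraries. In phagocytes it was at 141, 72.3, 110 and 138 CPM, lowest at day 2.

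Other genes of the same pathways, taken from lists that hold none of the 33 members, were counted in the same way. In the proximal tubule, of 20 other integrated stress response genes, 15 had enough UMIs at day 2 against sham and 6 were past 2-fold, all higher, beside 8.02% of all genes: Ppp1r15a, Nupr1 (log2 2.23), Ddit4, Mthfd2, Cebpb (2.73) and Gdf15 (2.61). Of 17 at reversal against sham, 7 were higher, among them Atf3 (log2 3.14), beside 7.61%. Of 15 other folding genes 1 was past 2-fold at day 2 against sham, Fkbp11 (log2 2.09), and 0 of 13 other degradation genes and 0 of 11 translocation genes, counts near that share of all genes. No test compared the lists. The medians were 0.51, -0.04, 0.18 and 0.03 for the stress response, folding, degradation and translocation lists, against 0.07 for all genes. Atf3 and Cebpb are also known as early-response genes, and the dissociation list was higher in the same comparisons; its part in these counts was not tested. In phagocytes, 9 of 16 stress response genes were past 2-fold higher at day 2 than sham, beside 30.3% of genes in either direction, and 6 of 17 lower at day 7 than at day 2, beside 12.2%: Ddit4, Slc7a11 (log2 -1.73), Slc7a5, Psat1 (-1.72), Shmt2 and Cebpb (-1.80). In endothelium 2 of 9, 1 of 12, 0 of 12 and 4 of 11 were past 2-fold higher in the 4 comparisons, beside 7.9, 9.26, 2.94 and 10.4% of genes.

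The summed level of the 33 members differed less between gates than the level of Sdf2l1 did. In the proximal tubule the sum was 3701, 4272, 4473 and 4598 CPM in sham, day 2, day 7 and reversed, in phagocytes 4103, 5353, 5514 and 5473, and in endothelium 4009, 3845, 4800 and 4357. Sham was the lowest library in the tubule and in phagocytes, and day 2 in endothelium. Cells were also clustered without the members, which gave 28 clusters with the libraries pooled, here called by their leading genes. The cluster led by the collagen genes Col1a1 and Col3a1, of 142 cells with none from sham, had the highest sum, 6732 CPM (interval 6589 to 6878), and the highest Atf5, 66.8 CPM. Next came the cluster led by Xcr1, Ifi205 and Clec9a (6276 CPM), with Sdf2l1 at 421 CPM. The lowest was led by Ccl22, Il4i1, Fscn1 and Ccr7, of 89 cells, at 2918 CPM, with Hspa5 at 191 CPM but Herpud1 at 240, its highest level in any cluster. The 6 clusters whose most common gate was the proximal tubule, which held 47.4% of the cells of 1 of them and 78.3 to 98.6% of the others, ran from 3666 to 4777. The lowest of them was mostly sham cells (901 of 931), led by Kap and Slc7a13, and the highest mostly reversed cells (750 of 850), led by Ttr and Kap, so libraries and clusters cannot be told apart there. The cluster led by Snhg11 and Slc22a30 held cells of both, 323 from sham and 265 from reversed, and its sum was 3452 CPM in sham, 4417 at day 7 (57 cells) and 4285 in reversed. In the cluster led by Kap and Slc7a13 the sum was alike, 3665 CPM in sham and 3703 in reversed (30 cells). In that led by Spp2 and Car3 it was 3800 and 4765 CPM (35 reversed cells).

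**Figure D5:**
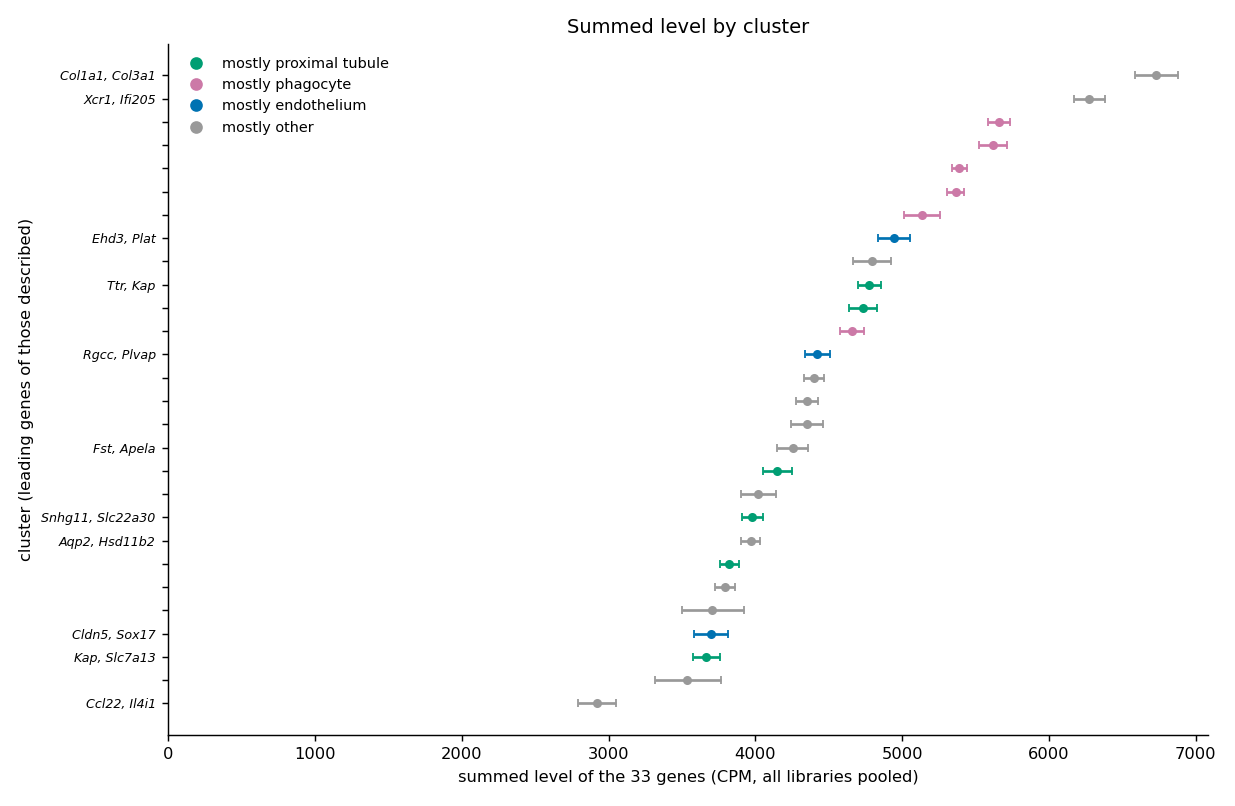
Summed CPM of the 33 members in 28 cell clusters (rows, with leading genes given for some of the clusters described in the text, libraries pooled), with exact Poisson 95% intervals as bars and colour for the most common gate (the legend's "mostly", even where that gate holds a minority of the cells). Clusters of phagocytes lie mostly above those of the proximal tubule, and the cluster led by Col1a1 is at 6732.

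Trib3 was found in all 3 endothelial clusters, with the libraries pooled, and was highest in 1. The cluster led by Rgcc and Plvap held it at 23.1 CPM (interval 17.3 to 30.3, 52 UMIs), against 5.00 in the cluster led by Ehd3 and Plat and 7.46 in that led by Cldn5 and Sox17. Xbp1 was also highest of the 3 there, at 256 CPM against 207 and 169, while Hspa5 was highest in the Ehd3 cluster, at 611 CPM against 464 and 365. Among tubule clusters, Sesn2 was highest in that led by Aqp2, at 43.7 CPM, and Xbp1 in that led by Fst and Apela, at 299.

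Likeness to the pattern of Hspa5 varied among the folding genes. Over 31 gate sums, with each gate's mean removed, the correlation of log2 levels with Hspa5 was 0.72 for Hsp90b1, 0.69 for Pdia4, 0.68 for Dnajb11, 0.62 for Dnajc3, 0.60 for Pdia6 and 0.58 for Pdia3, the 6 highest. Other folding genes were lower, with Canx at -0.16, Hyou1 at 0.21, Dnajb9 at 0.24 and P4hb at 0.26, and some members outside folding were higher than these, with Atf6 at 0.52, Ern1 at 0.46 and Sesn2 at 0.43. With the gates' means kept the order differed. Pdia3 was then at 0.68, Sdf2l1 at 0.61, Atf6 at 0.42, Ern1 at 0.19, Sesn2 at -0.05 and P4hb at -0.13. The gate sums share 4 libraries and their depths, so these are descriptions with no p. The 7 members with ERSE other than Hspa5 had a median correlation of 0.52 (range -0.16, for Canx, to 0.72), and the 21 with a window and no ERSE 0.24 (range -0.22 to 0.69). The ranges of these groups overlapped, and Pdia4, with no match in its window, lay near the top. The group without ERSE also holds members with few UMIs, such as Trib3, Chac1 and Asns, whose correlations counting error affects. The part of level in the difference between the groups was not tested.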

How the data were processed

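Kidney cells of 4 groups were measured as UMI counts per gene and cell, which the authors made with Cell Ranger and STAR on mouse GRCm38 (mm10), per the submitters' processing notes, without stated versions. The deposited counts are raw. The plate-based sample, whose wells cover all time points, was not analysed here. The members and gene lists were chosen with earlier results of these data known. Cells under 200 detected genes or above 50% mitochondrial UMIs were dropped. Doublets were removed by Scrublet score rank, at 0.8% per 1000 cells (48 to 187 cells per library). A cell entered a gate at a marker score of at least 0.2, with a margin of 0.2 over the next class, thresholds set after the cells were seen. From 1 to 106 cells per gate and library in the proximal, phagocyte and endothelial gates lay within 0.1 inside these limits. Counts were summed per gate and library where at least 30 cells were present and scaled to CPM, and ratios took a pseudocount of 1 CPM. Intervals are exact (95%: Poisson for levels, conditional binomial for ratios, Clopper-Pearson for shares), with a floor of 3 counts. With 1 library per group no test between groups was made. The rule for named genes was to give values in every library for Hspa5, Xbp1, Atf4 and Ddit3 in each main gate and for members past 2-fold in a gate. The ratio and interval scripts were tested on simulated data. Clusters came from Leiden clustering (resolution 1) with the members, the pathway lists and mitochondrial genes left out. Alternatives were TMM (edgeR 4.0.16) and DESeq2 1.42.0 size factors as scaling only, other filters, scalings, gates and pseudocounts. Python 3.11.15, scanpy 1.11.5, numpy 2.4.6, scipy 1.17.1 and R 4.3.3 were used.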

Additional observations from a re-analysis of the deposited data

Results flagged for a closer look

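Ddit3 went opposite ways in 3 gates at day 2 against sham, past 2-fold in each: the log2 ratio was 1.57 in the proximal tubule, -1.19 in the thin limb and -1.80 in phagocytes. The difference between the gates was not tested, as each group is 1 library. Past 2-fold in either direction were 8.02, 16.2 and 30.3% of all genes in these gates, in that order. The sham levels behind it rested on 63 UMIs in the tubule, 17 in the thin limb and 9 in phagocytes. With TMM factors the thin limb ratio fell short of 2-fold. The share of phagocytes with a UMI of Ddit3 was 2.04% in sham and 1.81% at day 2 when thinned, and 10.2 and 14.5% without thinning.

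Atf5 did so in 2 gates, with a log2 ratio of 1.56 in the proximal tubule and -1.66 in phagocytes at day 2 against sham. The phagocyte ratio rested on 4 UMIs in the 49 sham phagocytes, and this difference was not tested either. Of all genes, 8.02 and 30.3% were past 2-fold in either direction in these gates.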

How the results depend on the processing

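No paired analysis was possible because each group is 1 library with no replicate numbers, so no replicate could be left out either. In the proximal tubule, day 2 against sham, the 2 members past 2-fold became 4 with all UMIs as the scale, 1 with a pseudocount of 10 CPM and 5 with no minimum of UMIs. At day 7 against day 2 the 2 became 1, 0 and 6 in the same order, 0 with at most 20% mitochondrial UMIs and 1 with Leiden clusters as gates. At reversal against day 7 the 2 became 0 with a pseudocount of 10 CPM, 0 with at most 20% mitochondrial UMIs and 1 with equal weight per cell. At reversal against sham the 1 became 0 with TMM factors, DESeq2 size factors, a pseudocount of 10 CPM, no doublet removal or equal weight per cell, and 3 with at most 20% mitochondrial UMIs. In phagocytes the 7 at day 2 against sham became 4 with a pseudocount of 10 CPM, the 1 at day 7 against day 2 became 0 with that pseudocount or DESeq2 size factors, and the 3 at reversal against sham became 5 with no minimum of UMIs and 1 with counts of 0 set to 3, an alternative chosen after seeing the data. In endothelium the 0 became 3, 2 and 3 with no minimum of UMIs at day 2 against sham, day 7 against day 2 and reversal against sham, and 1 at day 7 against day 2 without doublet removal. Chac1 was highest in endothelium in 2 libraries and not 4 with at most 20% mitochondrial UMIs, and Canx lowest there in 1 and not 4 with Leiden clusters. The cause of these changes was not tested, apart from the settings' own construction. The gate orders of Sdf2l1, Edem1, Pdia3, Atf4, Sesn2 and Pdia6 stayed within 1.5 times the main count of libraries under the alternatives run.

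Several ratios fell short of 2-fold under some settings, as given with each gate. Over 725 alternatives of 82 single ratios, a change of direction was counted only where the main ratio was past 2-fold. By that count 1 changed direction, and the others need not have kept their size. Changes of sign in smaller ratios were not counted. It was Hyou1 in the proximal tubule at day 7 against day 2, at log2 0.11 with at most 20% mitochondrial UMIs. Without thinning, Ddit3 had a UMI in 2.09, 9.68, 11.3 and 5.88% of proximal tubule cells in sham, day 2, day 7 and reversed, and in 10.2, 14.5, 18.0 and 21.9% of phagocytes, where sham (5 of 49 cells) had the lowest share although its summed level was the highest. Trib3 had one in 0.917, 4.70, 6.197 and 5.32% of endothelial cells. The median log2 ratio of all genes in the proximal tubule shifted with the scale: by 0.18 with all UMIs, -0.15 with TMM factors and -0.12 with DESeq2 size factors or Leiden gates at day 2 against sham, by -0.12 with TMM factors at day 7 against day 2, by -0.13 with all UMIs at reversal against day 7, and by -0.22 and -0.21 with TMM and DESeq2 factors at reversal against sham. In phagocytes at day 2 against sham it shifted by 0.11 and 0.13 with those factors. With at most 20% mitochondrial UMIs, the members' median in the proximal tubule turned from 0.06 to -0.15 at reversal against day 7 (25 members). The all-gene median there went from 0.02 to 0.06. At day 2 against sham the same limit took the members' median from 0.19 to 0.38 (23 members) and the all-gene median from 0.07 to -0.03. Free-RNA subtraction could not be computed for the thin limb at day 7, where the estimated free RNA share was 100.2%. How much of the thin limb levels at day 7 comes from the gated cells is therefore not known. Depth is limiting in the sham sums of the distal convoluted tubule and phagocytes, where 3 UMIs stand for 30.6 and 19.2 CPM, and in the proximal tubule at day 7, the shallowest of its 4 sums (644360 UMIs).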

Other observations

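Outside the gates of the report, the fibroblast or mural gate held 92 cells at day 7 and 94 after reversal, and its summed level of the 33 members was 6629 CPM (interval 6454 to 6806) and 5647 CPM (5477 to 5821). The median log2 ratio of its 25 counted members at reversal against day 7 was -0.20, against 0.09 for all genes. T cells, with 98, 285 and 252 cells at day 2, day 7 and reversed, had summed levels of 3595, 4203 and 3354 CPM, with a median log2 ratio of -0.27 over 24 members at reversal against day 7, against 0.0018 for all genes. In these comparisons 6 of 25 and 4 of 24 members lay above the all-gene median. From day 7 to reversed, the median number of phagocyte markers detected per cell went from 5.5 to 3 and from 5 to 3 in these gates. That of proximal tubule markers went from 0 to 3 and from 0 to 2. The dissociation genes of T cells went both ways, with Dusp1 at log2 0.82 and Hsph1 at -0.94. The part of these measures was not tested. Sdf2l1 was past 2-fold lower after reversal than at day 7 in the fibroblast or mural gate (log2 -1.14, interval -1.72 to -0.58). In T cells Sdf2l1 (log2 -1.04, -1.46 to -0.65) and Atf6 (log2 -1.26, -2.32 to -0.28) were. These were 1 of 25 and 2 of 24 members. The 5th to 95th percentiles of all genes were -1.10 to 1.07 in the fibroblast or mural gate and -0.80 to 0.78 in T cells. Atf6 in T cells had 0 UMIs at day 2, 35 at day 7 and 10 after reversal. It was the 1 of 24 members past 2-fold at day 7 against day 2, where the 95th percentile of all genes was 1.33. Atf4 was among those higher after reversal in the fibroblast or mural gate, at 83.4 CPM at day 7 and 116 CPM after reversal, short of 2-fold.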
